A study of Mus musculus with 4 samples.

Results

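Striatal RNA of mice homozygous for the Q200 allele of a Huntington's disease knock-in series was set against striatal RNA of wild-type mice, gene by gene. The comparison used 12880 genes. They came from 29144 features in the table, of which 23210 had a gene name and 12966 of those had a mean of at least 1 FPKM, a level per unit of transcript length and of sequencing depth, over the 4 libraries; 86 short non-coding RNA genes among them were left out. HDQ200/200 mice carried the mutant allele on both chromosomes and HDQ+/+ mice carried none. Both had the C57BL/6J background and both striata were taken at 21 weeks of age. There was 1 library per genotype, and the other genotypes of the series were HDQ150/150 and HDQ315/+. The sex of the animals, whether tissue was pooled and how the repeat was sized are not stated by the labels. The HDQ200/200 library held 33468900 fragments and the HDQ+/+ library 36877600, counted to 6 digits. With no replicate library there was no spread between animals, so no p-value was computed, and every difference below is a difference between these libraries. At the filter, Sh3bp2 was the last gene in, with a mean of 1.0009 FPKM, and BC061194 the first gene out, with 0.9995 FPKM.

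The striatum is made up mostly of GABAergic projection neurons, which receive glutamate from cortex and thalamus and dopamine from the midbrain. Those of the direct pathway carry the dopamine D1 receptor, substance P and dynorphin, and those of the indirect pathway carry the dopamine D2 receptor, an adenosine receptor and enkephalin. An expanded CAG repeat in the first exon of the huntingtin gene lengthens a polyglutamine stretch of the protein, and loss of projection neuron transcripts is a known feature of mice that carry it.

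Transcript length moved with the difference across the whole table, so each gene is given with its length. Differences are log2 ratios of FPKM + 1, HDQ200/200 over HDQ+/+, and a gene was called from 1.5-fold, which is 0.585 on that scale. By this rule 693 genes were called higher in HDQ200/200 (5.38% of the 12880) and 1130 lower (8.77%), 14.2% in either direction. In the shortest of 10 equal classes of transcript length, with a median of 1046 bases, 14 genes were called higher and 472 lower (36.9%), and the median log2 ratio was −0.48. In the longest class, with a median of 8447 bases, 341 genes were called higher (26.7%) and 16 lower, and the median log2 ratio was 0.39. The medians climbed from each class to the next, through −0.08 in the fifth and 0.11 in the eighth. The Spearman correlation of length with the log2 ratio was 0.59 across 12777 genes (99.2%) that had an annotated length, as a description across genes that share both libraries. On the deposited scaled counts, which are not divided by length, it was 0.62. Base composition moved along with length: GC content correlated at −0.34 with the log2 ratio and at −0.24 after length had been taken out. HDQ150/150 and HDQ315/+, set against the same HDQ+/+ library, ran the other way, with median log2 ratios of 0.10 and 0.29 in the shortest class and −0.11 and −0.18 in the longest.

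**Figure D1:**
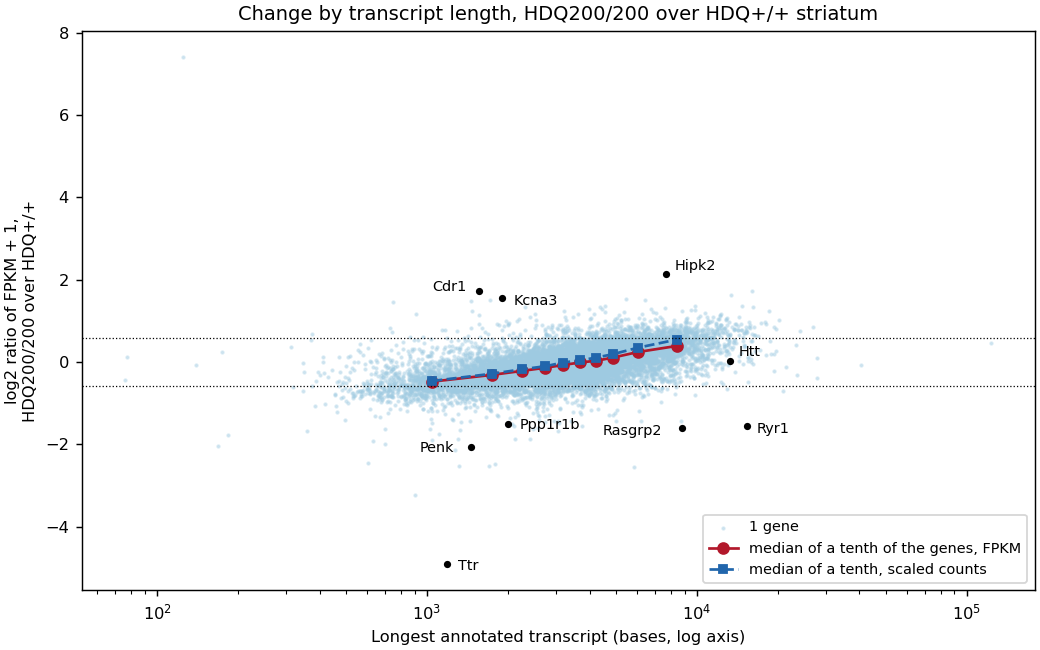
Each pale point is 1 gene, placed by its longest annotated transcript (bases, log axis) and its log2 ratio of FPKM + 1, HDQ200/200 over HDQ+/+; red circles and blue squares are medians of 10 equal classes of genes for FPKM and for scaled counts, and dotted lines mark 1.5-fold. The FPKM medians run from −0.48 in the shortest class to 0.39 in the longest, while Ryr1 and Rasgrp2 lie far below the medians of their annotated length and Kcna3 and Cdr1 far above.

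To read a gene against others of its own length, the median log2 ratio of its length class, 1 of 20 classes of equal gene number, was subtracted. After this length correction 422 of 12777 genes were higher (3.3%) and 544 lower (4.26%). Of 685 genes with a length that had been called higher, 242 (35.3%) were still called, and of 1120 called lower, 382 (34.1%) were; no gene turned from one call to the other. The call counts also depended on the scaling between libraries. Before length correction the split was 905 higher and 903 lower with median centring, 998 and 834 with upper quartile scaling, 1290 and 1033 on scaled counts, and 754 and 744 with a GC correction. The median log2 ratio was −0.05 as deposited, with a 5th percentile of −0.70 and a 95th of 0.60, against 0.01 on scaled counts.

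Htt itself, on chromosome 5 at positions 34761740 to 34912521 of mm10, was measured at 7.68 FPKM in HDQ200/200 and 7.56 FPKM in HDQ+/+. The fragments behind these values were 3722 in HDQ200/200 and 4120 in HDQ+/+. Its log2 ratio was 0.02, and its ratio of scaled counts was 1.04, with a 95% interval of 0.990 to 1.08 that covers counting error only, as do all intervals given here. The longest annotated Htt transcript has 13215 bases, and genes of that length were mostly higher in HDQ200/200: the length-corrected value was −0.45, short of 1.5-fold. These values count fragments of the whole gene. By genotype, the HDQ200/200 value is of the mutant allele and the HDQ+/+ value of the wild-type allele.

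Genes shared by both classes of projection neuron were lower in HDQ200/200, by about as much before as after length correction. The 29 listed genes were measured as 30 features, each at 1 FPKM or more in both libraries. A further feature named Arpp21 was under the filter, at 0.774 FPKM in HDQ200/200 and 1.61 FPKM in HDQ+/+. The list had 19 called lower and none higher, beside 8.77% of all genes called lower, with a median log2 ratio of −0.70 against −0.05 for all genes. After length correction 22 were lower, beside 4.26% of all genes, and the median was −0.74. In a bulk sample, fewer cells of a type and less RNA per cell cannot be told apart.

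Genes of dopamine and cAMP signalling were among the lowest of the list. Ppp1r1b, which encodes the dopamine- and cAMP-regulated phosphoprotein DARPP-32, stood at 293 FPKM in HDQ200/200 and 830 FPKM in HDQ+/+, a log2 ratio of −1.50 and a length-corrected value of −1.27. Rgs9, which speeds the end of G protein signalling, stood at 84.3 FPKM in HDQ200/200 and 198 FPKM in HDQ+/+ (log2 ratio −1.22, length-corrected −1.20). Rasgrp2, an activator of Rap proteins, had 40.8 FPKM in HDQ200/200 and 126 FPKM in HDQ+/+, a log2 ratio of −1.60. The annotation gives Rasgrp2 a transcript of 8815 bases, but the effective length implied by its counts and FPKM was at percentile 41.1 of all genes; corrected by effective length the value was −1.52, and by annotated length −2.07. Adcy5, the main striatal adenylyl cyclase, was at 118 FPKM in HDQ200/200 and 184 FPKM in HDQ+/+, a log2 ratio of −0.64 that became −0.97 after length correction. Pde10a, a phosphodiesterase of these neurons, was at 113 FPKM in HDQ200/200 and 157 FPKM in HDQ+/+. Its log2 ratio of −0.47 was short of 1.5-fold and its length-corrected value of −0.80 was past it. Its relative Pde1b was past it both ways (180 FPKM in HDQ200/200 and 340 FPKM in HDQ+/+, log2 ratio −0.91, length-corrected −0.93). The G protein subunits of the same pathway differed less: Gng7 had a log2 ratio of −0.46 and Gnal of 0.09.

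Genes of excitability and calcium handling held the longest transcripts of the list. Ryr1, an intracellular calcium release channel with a transcript of 15358 bases, was measured at 3.73 FPKM in HDQ200/200 and 12.8 FPKM in HDQ+/+, from 1568 and 3868 fragments in the same order. Its log2 ratio of −1.55 became −2.02 when set against genes of its length. On scaled counts the log2 ratio of Ryr1 was smaller in size, −1.11. Scn4b, a sodium channel beta subunit, was at 119 FPKM in HDQ200/200 and 284 FPKM in HDQ+/+ (log2 ratio −1.25, length-corrected −1.39). Itpr1, the inositol trisphosphate receptor, gave different answers on the deposited scales. By FPKM it was lower, at 122 in HDQ200/200 and 216 in HDQ+/+ (log2 ratio −0.81), but its fragments numbered 30502 in HDQ200/200 and 30367 in HDQ+/+, and the ratio of scaled counts was 1.15 (95% interval 1.133 to 1.17). Only 6 of 12554 genes with at least 50 fragments in both libraries were 1.5-fold lower in HDQ200/200 by the ratio of FPKM while their scaled counts were higher in HDQ200/200, and Itpr1 was one of them. Its direction therefore depends on the scale.

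Receptors and transcription factors of the list spread from clearly lower to level. The cannabinoid receptor Cnr1 was at 50.2 FPKM in HDQ200/200 and 82.7 FPKM in HDQ+/+ (log2 ratio −0.71). Bcl11b, a transcription factor of projection neuron identity, was at 44.0 FPKM in HDQ200/200 and 60.1 FPKM in HDQ+/+, a log2 ratio of −0.44 and −0.76 after length correction. Foxp1 differed less, at 51.2 FPKM in HDQ200/200 and 56.3 FPKM in HDQ+/+ (−0.13, length-corrected −0.46). Strn, a calmodulin-binding scaffold, was the only other member besides Gnal with a positive log2 ratio (45.0 FPKM in HDQ200/200 and 39.5 FPKM in HDQ+/+, 0.19), and its length-corrected value was −0.28. Kcnab1 was held by a pair of features under the same name: one was at 101 FPKM in HDQ200/200 and 155 FPKM in HDQ+/+, and the other rested on 9 fragments in HDQ200/200 and 11 in HDQ+/+.

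Of 9 measured direct pathway genes 6 were called lower and none higher, beside 8.77% of all genes called lower, with a median log2 ratio of −0.73. After length correction 3 were lower, beside 4.26% of all genes, and the median was −0.50. Drd1a, the D1 receptor, was measured at 51.5 FPKM in HDQ200/200 and 85.9 FPKM in HDQ+/+ (log2 ratio −0.73, length-corrected −0.70). The prodynorphin gene Pdyn was at 22.7 FPKM in HDQ200/200 and 41.9 FPKM in HDQ+/+ (−0.86, length-corrected −0.66), and the muscarinic receptor gene Chrm4 at 18.7 FPKM in HDQ200/200 and 34.6 FPKM in HDQ+/+ (−0.86, length-corrected −0.51). Tac1, the substance P precursor, was at 164 FPKM in HDQ200/200 and 286 FPKM in HDQ+/+ (−0.80, length-corrected −0.50). The transcription factor genes of the list were near level: Isl1 had a log2 ratio of −0.24, Ebf1 of 0.14 and Eya1 of 0.25. The other listed gene, Dlk1, was under the filter, at 0.930 FPKM in HDQ200/200 and 1.35 FPKM in HDQ+/+.

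Of 10 indirect pathway genes 6 were called lower and none higher, beside 8.77% of all genes called lower, with a median log2 ratio of −0.77. After length correction 4 were lower, beside 4.26% of all genes, and the median was −0.58. Penk, the enkephalin precursor, was among the 12 lowest genes of the whole comparison, with 15236 fragments in HDQ200/200 and 64164 in HDQ+/+. Its ratio of scaled counts was 0.272 (95% interval 0.267 to 0.277) and its length-corrected log2 ratio was −1.71. Adora2a, the adenosine receptor of these neurons, was at 51.7 FPKM in HDQ200/200 and 139 FPKM in HDQ+/+ (log2 ratio −1.41, length-corrected −1.25). Drd2, the D2 receptor, was at 50.8 FPKM in HDQ200/200 and 85.5 FPKM in HDQ+/+ (−0.74), which after length correction was −0.58, just short of 1.5-fold. The orphan receptors Gpr6 and Gpr52 had log2 ratios of −0.95 and −0.80. Grik3, a kainate receptor subunit with a transcript of 8973 bases, was the member with a positive value, 13.5 FPKM in HDQ200/200 and 9.46 FPKM in HDQ+/+ (0.47), and it was level after length correction (0.01). Whether the pathways differed from each other was not tested.

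**Figure D2:**
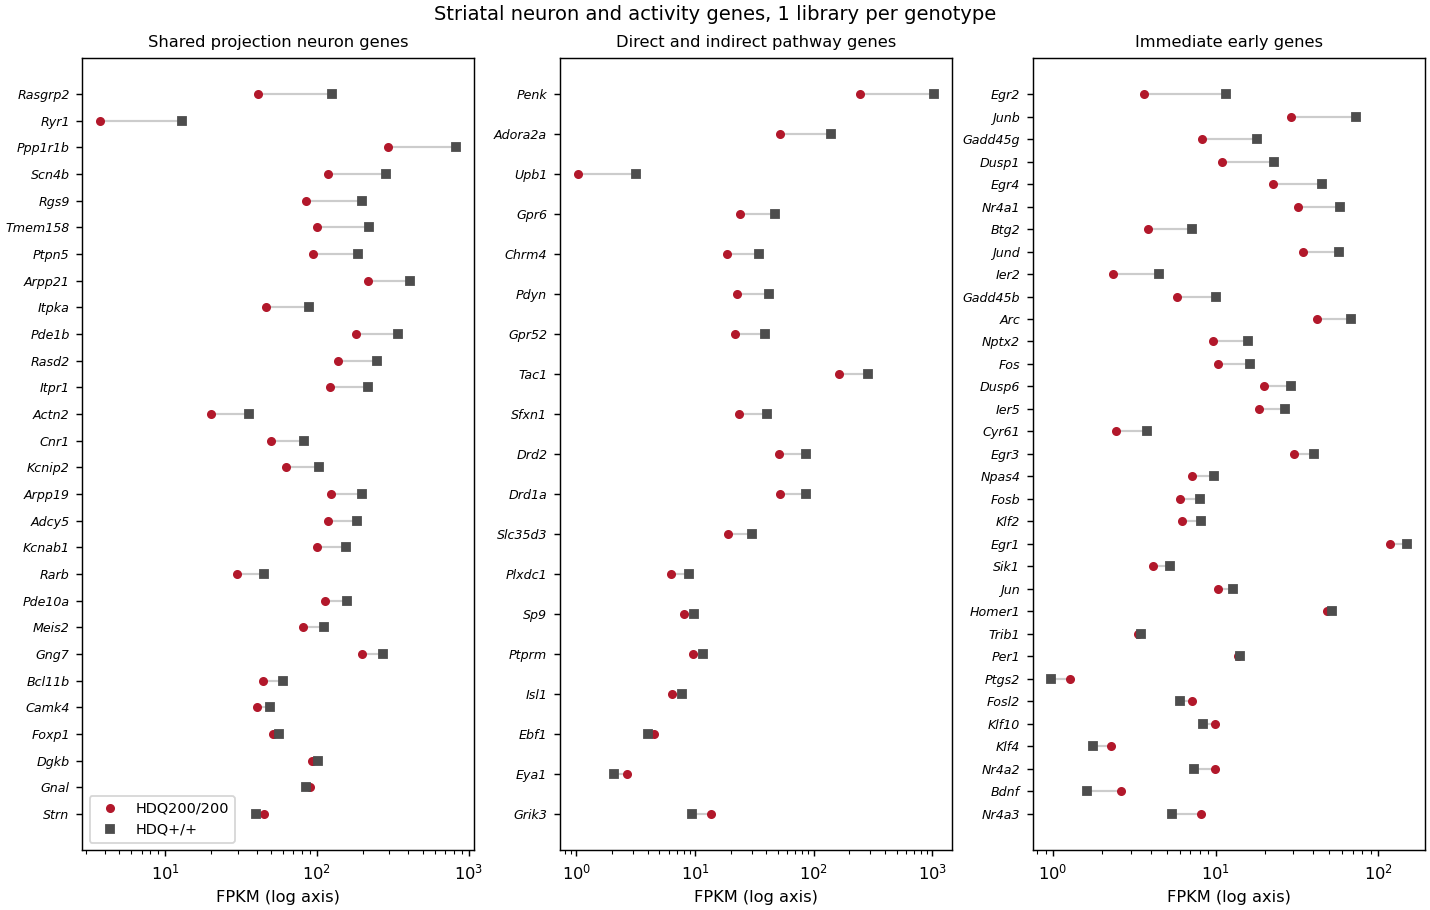
FPKM (log axis) of measured genes in HDQ200/200 (red circles) and HDQ+/+ (grey squares) for shared projection neuron genes, direct and indirect pathway genes, and immediate early genes, sorted by log2 ratio with the lowest on top; each point is 1 library. In the first panel the HDQ200/200 point lies left of the HDQ+/+ point for all genes shown but Gnal and Strn, and the gap is widest for Rasgrp2, Ryr1 and Ppp1r1b; Penk is the widest of the second panel and Egr2 of the third.

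Immediate early genes, which neurons switch on within minutes of activity, were lower in part. Of 33 measured genes 13 were called lower and none higher, beside 8.77% of all genes called lower, with a median log2 ratio of −0.42. After length correction 7 were lower, beside 4.26% of all genes, and the median was −0.36. Egr2, a zinc finger transcription factor, had 397 fragments in HDQ200/200 and 1404 in HDQ+/+, and 3.61 FPKM against 11.5 FPKM in the same order (log2 ratio −1.44, length-corrected −1.32). The AP-1 subunit gene Junb was at 29.0 FPKM in HDQ200/200 and 73.0 FPKM in HDQ+/+ (−1.30, length-corrected −1.01). The phosphatase gene Dusp1 was at 10.9 FPKM in HDQ200/200 and 22.7 FPKM in HDQ+/+ (−0.99, length-corrected −0.79), and the nuclear receptor gene Nr4a1 at 32.3 FPKM in HDQ200/200 and 58.5 FPKM in HDQ+/+ (−0.84, length-corrected −0.67). The best known members differed by less: Arc had a log2 ratio of −0.67, Fos of −0.59, Npas4 of −0.41 and Egr1 of −0.34, and Fos and Arc were short of 1.5-fold after length correction (−0.36 and −0.56). Some members had positive values short of the fold, with Nr4a3 at 8.10 FPKM in HDQ200/200 and 5.36 FPKM in HDQ+/+ (0.52) and the neurotrophin gene Bdnf at 2.61 FPKM in HDQ200/200 and 1.63 FPKM in HDQ+/+ (0.46). The other 2 listed genes, Atf3 and Maff, were under the filter.

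The promoters of 4 of these lower genes are shown because the family is known to be driven in part through the cAMP response element, TGACGTCA, whose core is TGACG. They run from 250 bases before to 50 bases after the start of transcription, 5′ to 3′ on the gene's own strand, taken from RefSeq on GRCm38.p6. They lie at chr10:67537619-67537918 (Egr2, plus strand), chr8:84978699-84978998 (Junb, minus strand), chr15:101266596-101266895 (Nr4a1, plus strand) and chr17:26508423-26508722 (Dusp1, minus strand). Capitals mark TGACG on either strand, so that CGTCA in capitals is the motif read from the other strand.
Egr2: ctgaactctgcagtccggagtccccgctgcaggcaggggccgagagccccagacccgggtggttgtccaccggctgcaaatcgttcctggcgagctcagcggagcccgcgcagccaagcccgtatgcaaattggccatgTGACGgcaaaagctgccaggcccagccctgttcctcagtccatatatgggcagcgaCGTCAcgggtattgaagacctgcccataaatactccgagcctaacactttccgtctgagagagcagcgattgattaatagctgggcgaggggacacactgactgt
Junb: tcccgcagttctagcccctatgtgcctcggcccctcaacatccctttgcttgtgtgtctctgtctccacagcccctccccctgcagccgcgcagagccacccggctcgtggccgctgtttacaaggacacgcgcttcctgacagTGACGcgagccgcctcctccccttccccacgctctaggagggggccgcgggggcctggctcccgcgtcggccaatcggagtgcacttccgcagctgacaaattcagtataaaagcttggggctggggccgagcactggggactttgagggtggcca
Nr4a1: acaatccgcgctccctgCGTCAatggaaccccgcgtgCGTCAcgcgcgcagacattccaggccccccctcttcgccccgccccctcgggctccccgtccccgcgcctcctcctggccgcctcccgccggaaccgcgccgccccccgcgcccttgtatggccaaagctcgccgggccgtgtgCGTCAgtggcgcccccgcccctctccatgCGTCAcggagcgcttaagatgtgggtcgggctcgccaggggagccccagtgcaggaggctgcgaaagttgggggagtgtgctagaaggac
Dusp1: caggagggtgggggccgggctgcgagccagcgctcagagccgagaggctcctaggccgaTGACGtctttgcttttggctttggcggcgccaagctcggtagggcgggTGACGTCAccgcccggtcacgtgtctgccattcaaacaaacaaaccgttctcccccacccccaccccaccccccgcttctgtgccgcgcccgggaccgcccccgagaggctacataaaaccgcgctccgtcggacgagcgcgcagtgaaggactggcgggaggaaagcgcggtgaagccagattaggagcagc
Egr2 held 2 matches, Junb 1, Nr4a1 4 and Dusp1 3, of which a pair in Dusp1 overlap as the palindrome TGACGTCA. TGACG was found in the promoters of 16 of 24 matched immediate early genes (66.7%) and in 32.4% of 9288 promoters of analysed genes. The full TGACGTCA was in 2 of the 24, Btg2 and Dusp1, and in 3.38% of the 9288. Shared projection neuron genes held TGACG in 1 of 23 matched promoters (4.35%), that of Strn, direct pathway genes in 3 of 7 (42.9%) and indirect pathway genes in 2 of 6 (33.3%). The immediate early genes with TGACG included some not called lower, such as Nr4a3 and Npas4. Whether the motif went with the differences was not tested. A match describes letters in this window and says nothing of binding.

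Cortical glutamatergic neuron genes ran opposite to the projection neuron genes. Of 16 listed genes, all measured, 10 were called higher in HDQ200/200 and 1 lower, beside 5.38% and 8.77% of all genes, with a median log2 ratio of 0.68; after length correction 11 were higher and none lower, beside 3.3% higher in all genes, with a median of 0.83. The vesicular glutamate transporter Slc17a7 was measured at 106 FPKM in HDQ200/200 and 57.0 FPKM in HDQ+/+ (log2 ratio 0.89, length-corrected 0.99). Neurod6, a transcription factor of these neurons, was at 14.0 FPKM in HDQ200/200 and 6.55 FPKM in HDQ+/+ (0.99, length-corrected 1.23). Tbr1, of deep layer neurons, was at 18.4 FPKM in HDQ200/200 and 9.97 FPKM in HDQ+/+ (0.82), and Cux2, of upper layers, at 5.59 FPKM in HDQ200/200 and 3.36 FPKM in HDQ+/+ (0.60, length-corrected 0.13). The most abundant member, Nrgn, a calmodulin-binding protein that the striatum also expresses, was the one called lower, at 471 FPKM in HDQ200/200 and 853 FPKM in HDQ+/+ (−0.86, length-corrected −0.51). The summed FPKM of the list was 756 in HDQ200/200 and 1076 in HDQ+/+, most of it Nrgn. The part of cortical cells in the differences of other genes was not tested. Against the same HDQ+/+ library the list's median was 1.26 in HDQ150/150 and 0.27 in HDQ315/+.

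Thalamic genes were level by median (0.02), and 2 of 10 were called higher, beside 5.38% of all genes. These were the glutamate transporter Slc17a6 (2.71 FPKM in HDQ200/200 and 1.30 FPKM in HDQ+/+, log2 ratio 0.69) and Rora (10.5 FPKM in HDQ200/200 and 5.001 FPKM in HDQ+/+, 0.94, length-corrected 0.48). After length correction 1 of the 10 was higher, beside 3.3% of all genes, and the median was 0.16. In each of the HDQ200/200 and HDQ+/+ libraries 2 members were under 1 FPKM. Of the striatal interneuron lists, the GABAergic one differed little as a group, while the cholinergic one was lower, with a length-corrected median of −0.26. The cholinergic list had a median of −0.40 with 3 of 8 lower and 1 higher, beside 8.77% and 5.38% of all genes, but no member was past 1.5-fold after length correction; the vesicular acetylcholine transporter Slc18a3 was at 3.50 FPKM in HDQ200/200 and 6.31 FPKM in HDQ+/+ (−0.70, length-corrected −0.50), and the synthesis gene Chat at −0.31. The GABAergic list had a median of −0.12, which turned to 0.07 after length correction. Its short peptide genes Sst (−0.66) and Npy (−0.72) became −0.14 and −0.19 after length correction, while Nos1, which makes nitric oxide, was higher at 5.08 FPKM in HDQ200/200 and 2.16 FPKM in HDQ+/+ (0.94, length-corrected 0.47).

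The 6 lowest genes of the comparison, among those with at least 50 fragments in HDQ+/+, were all choroid plexus genes. The choroid plexus is the epithelium that secretes cerebrospinal fluid into the ventricle beside the striatum. Of 16 listed genes 10 passed the filter, 5 of them (Folr1, Kcne2, Sostdc1, Kcnj13 and Otx2) only through the other libraries, since each was under 1 FPKM in HDQ200/200, so the number that passed is no support for a direction. The thyroid hormone carrier Ttr had 1726 fragments in HDQ200/200 and 61458 in HDQ+/+, a ratio of scaled counts of 0.0322 (95% interval 0.0307 to 0.0338) and a length-corrected log2 ratio of −4.48. Kl, the klotho gene, was at 1.24 FPKM in HDQ200/200 and 12.1 FPKM in HDQ+/+ (log2 ratio −2.55, length-corrected −2.77), and the folate receptor Folr1 at 0.668 FPKM in HDQ200/200 and 8.65 FPKM in HDQ+/+ (−2.53). Kcne2, a potassium channel subunit, rested on 10 fragments in HDQ200/200 and 374 in HDQ+/+. Enpp2, which myelinating cells also express, was at 95.9 FPKM in HDQ200/200 and 271 FPKM in HDQ+/+ (−1.49). The 6 listed genes under the filter were F5, Prlr, Aqp1, Slc4a5, Tmem72 and Cldn2, and they lay between 0.0685 and 0.220 FPKM in HDQ200/200 and between 0.771 and 2.91 FPKM in HDQ+/+. The HDQ+/+ library held the highest value of the 4 for every measured member and the summed FPKM of the measured members was 153 in HDQ200/200 and 1866 in HDQ+/+. The part of these cells in the differences of other genes was not tested.

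Ependymal genes, of the ciliated lining of the ventricle, were called lower for 9 of 12 measured, beside 8.77% of all genes, with a median log2 ratio of −0.73. Of the 12, Mia and Hdc were under 1 FPKM in HDQ200/200 and passed the filter through other libraries, and the listed Spag16 and Rsph4a were under it. Most are short, and after length correction 2 were lower, beside 4.26% of all genes, and the median was −0.44. Foxj1, the master regulator of motile cilia, was at 3.36 FPKM in HDQ200/200 and 5.28 FPKM in HDQ+/+ (−0.53, length-corrected −0.37), and the lipid transfer gene Pltp at 30.4 FPKM in HDQ200/200 and 51.8 FPKM in HDQ+/+ (−0.75, length-corrected −0.52). Red blood cell genes were lower too: the merged feature Hba-a1,Hba-a2 had 288 fragments in HDQ200/200 and 1353 in HDQ+/+ (log2 ratio −2.00, length-corrected −1.47), and the merged feature Hbb-b1,Hbb-b2, outside the list, had 129 in HDQ200/200 and 621 in HDQ+/+ (−1.95). The haem synthesis gene Alas2, which passed the filter only through the other libraries, was at 0.887 FPKM in HDQ200/200 and 3.86 FPKM in HDQ+/+. Near-identical globin copies share reads, so the split between them is uncertain.

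**Figure D3:**
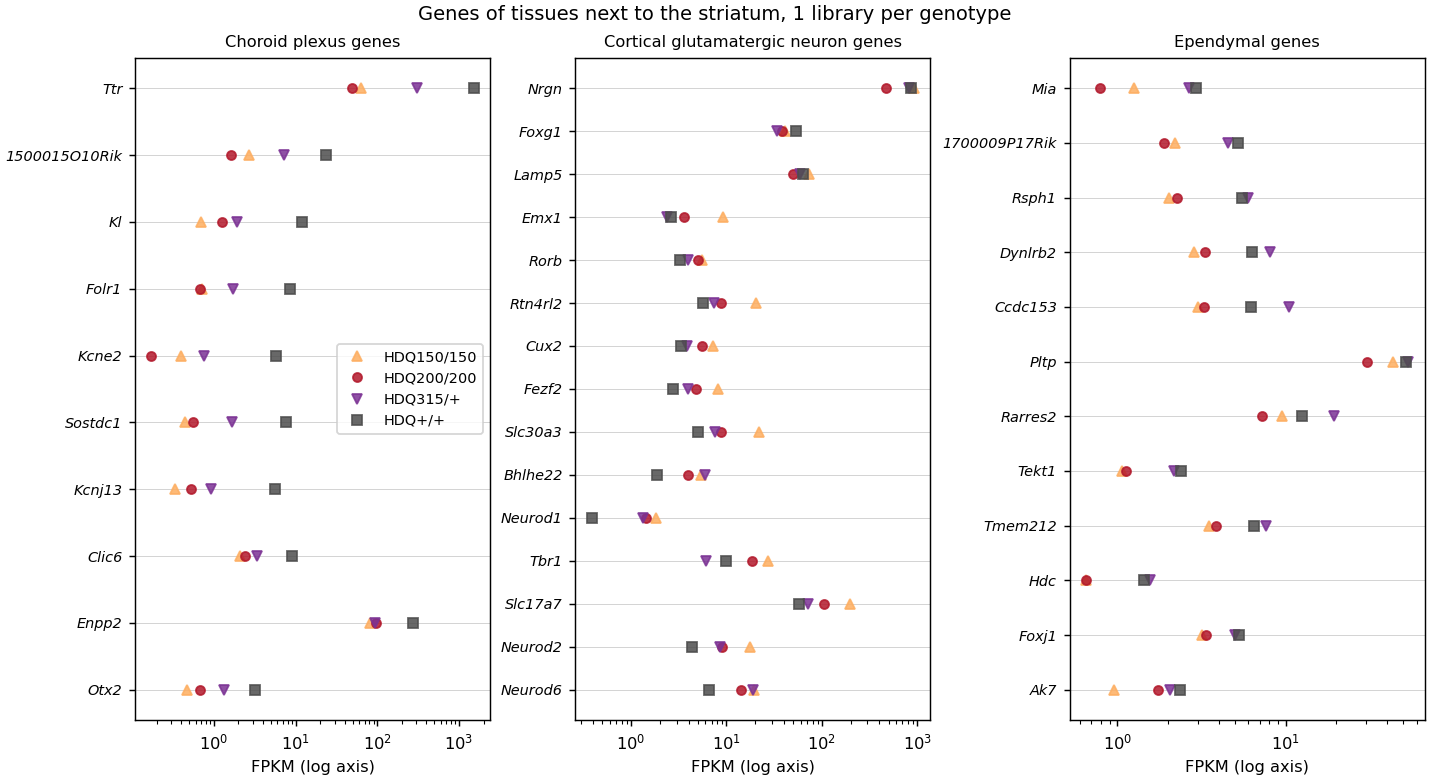
FPKM (log axis) of choroid plexus, cortical glutamatergic neuron and ependymal genes in all 4 libraries, 1 point per library, with genes sorted by their log2 ratio of HDQ200/200 over HDQ+/+. The HDQ+/+ squares lie right of all other points for each choroid plexus gene, while most cortical genes have HDQ200/200 right of HDQ+/+ and HDQ150/150 further right still.

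Genes of protein synthesis and energy metabolism were lower as deposited, and by less after length correction with the filter on low values. With no filter, where each length class also holds genes near 0, the corrected medians were −0.70 for the ribosome, −0.64 for complex I and −0.57 for complexes II to V. Of 76 measured cytosolic ribosomal protein genes, 63 were called lower, beside 8.77% of all genes, and all 76 had a negative log2 ratio, with a median of −0.73; after length correction 6 were lower, beside 4.26% of all genes, and the median was −0.28. Rpl36, of the large subunit, was at 190 FPKM in HDQ200/200 and 401 FPKM in HDQ+/+ (−1.08, length-corrected −0.55), and Rps29, of the small subunit, at 575 FPKM in HDQ200/200 and 1207 FPKM in HDQ+/+ (−1.07, length-corrected −0.54). The proton-pumping NADH dehydrogenase, complex I of the respiratory chain, had 23 of 37 genes lower, beside 8.77% of all genes (median −0.66). After length correction the median was −0.16 and 2 genes were lower, beside 4.26% of all genes. One of these was Ndufb7 (66.4 FPKM in HDQ200/200 and 123.2 FPKM in HDQ+/+, −0.88), whose annotation lists a transcript of 4435 bases; corrected by effective length it was −0.30. Complexes II to V had 19 of 39 lower, beside 8.77% of all genes (median −0.58). Among these were the ATP synthase genes Atp5k (−0.88) and Atp5e (−0.82). After length correction 1 of the 39 was lower, beside 4.26% of all genes, and the median was −0.17. Proteasome genes had a median of −0.37, and 3 of 36 were lower, a share near the 8.77% of all genes. Psmb9, an interferon-induced subunit, was at 0.615 FPKM in HDQ200/200 and 2.32 FPKM in HDQ+/+ (−1.04, length-corrected −0.92) and passed the filter only through the other libraries. In the libraries with the opposite length trend the ribosomal median was 0.11 (HDQ150/150) and 0.36 (HDQ315/+).

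**Figure D4:**
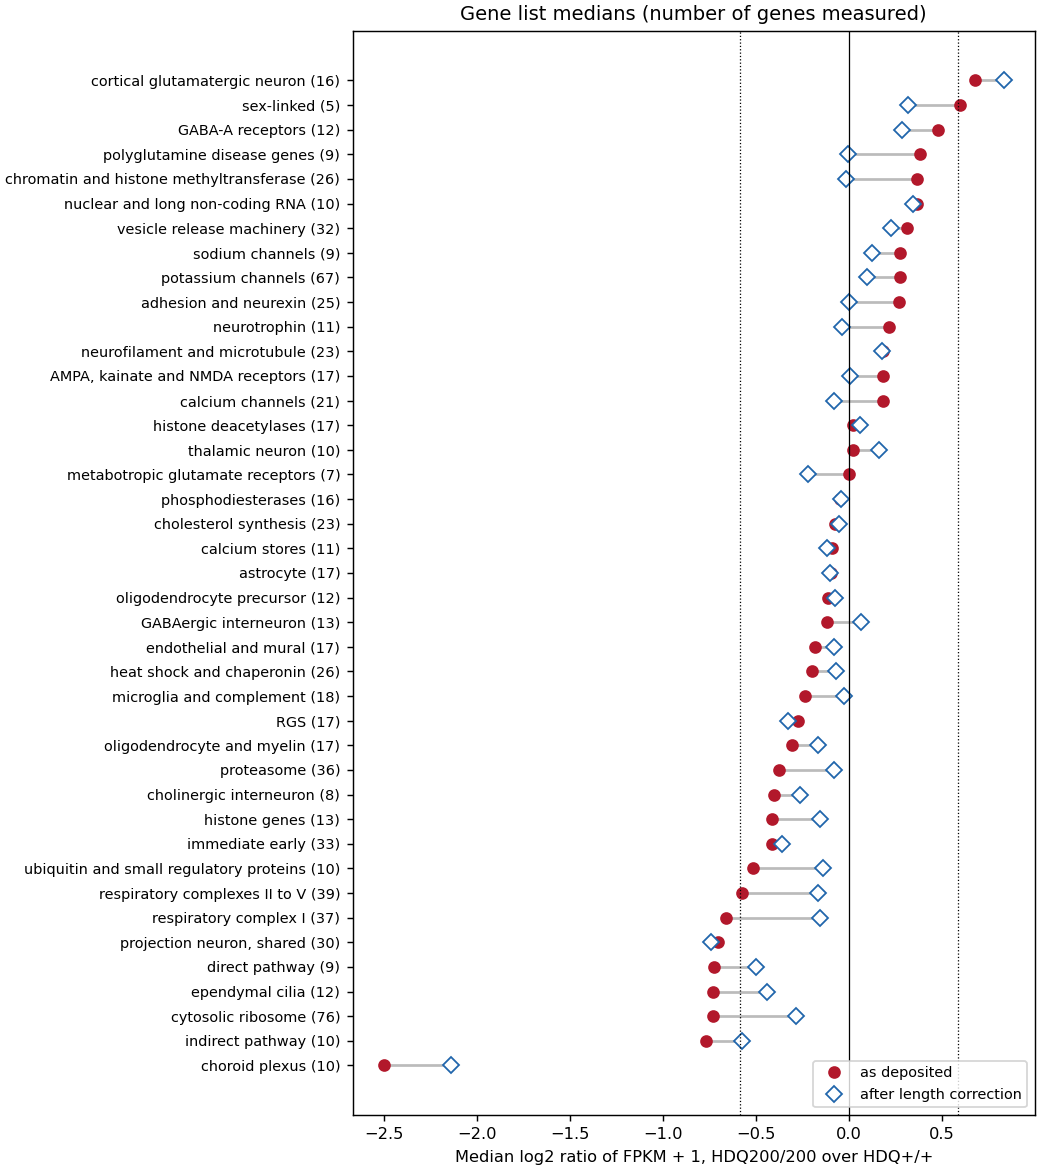
Median log2 ratio of FPKM + 1, HDQ200/200 over HDQ+/+, of each list with at least 5 measured genes (number in brackets), as deposited (red circles) and after length correction (open blue diamonds); dotted lines mark 1.5-fold. Ribosomal and respiratory chain medians move most of the way to 0 after correction, from −0.73 to −0.28 for the ribosome, while shared projection neuron genes (−0.70 and −0.74) and cortical genes (0.68 and 0.83) stay outside the dotted lines.

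Ion channels and transmitter receptors had higher medians as deposited, again with long transcripts. Of 91 listed potassium channel genes 67 passed the filter, and 11 were called higher and 6 lower, beside 5.38% and 8.77% of all genes. Their median was 0.28, but 0.05 over the list with no filter. After length correction 8 were higher and 6 lower, beside 3.3% and 4.26% of all genes, with a median of 0.10, and the choroid plexus genes Kcne2 and Kcnj13 were the lowest of them. Kcna3, a voltage-gated channel with a transcript of only 1902 bases, was at 3.47 FPKM in HDQ200/200 and 0.522 FPKM in HDQ+/+, from 297 and 48 fragments in the same order (log2 ratio 1.55, length-corrected 1.85). Kcna3 passed the filter only through HDQ200/200, since it was under 1 FPKM in each of the other libraries, so its place among the higher genes follows in part from the filter. Kcnj6, a G protein-gated inward rectifier, was at 2.97 FPKM in HDQ200/200 and 0.781 FPKM in HDQ+/+ (1.16, length-corrected 1.18), and Kcnh5 at 3.70 FPKM in HDQ200/200 and 1.24 FPKM in HDQ+/+ (1.07, length-corrected 1.05). Kcnh7 was at 4.97 FPKM in HDQ200/200 and 0.918 FPKM in HDQ+/+ (1.64, length-corrected 1.17). Among sodium channels Scn2a1 was higher (42.4 FPKM in HDQ200/200 and 24.6 FPKM in HDQ+/+, 0.76) but not after length correction (0.29). Calcium channels had a median of 0.18 that turned to −0.08 after length correction.

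GABA-A receptor subunits kept a positive median, 0.48 as deposited and 0.29 after length correction, with 4 of 12 higher and 1 lower after it, beside 3.3% and 4.26% of all genes. The beta subunit gene Gabrb2 was at 60.2 FPKM in HDQ200/200 and 36.4 FPKM in HDQ+/+ (log2 ratio 0.71, length-corrected 0.69). The delta subunit Gabrd, found in receptors outside synapses, went the other way at 37.5 FPKM in HDQ200/200 and 76.8 FPKM in HDQ+/+ (−1.02, length-corrected −0.85). Ionotropic glutamate receptors had 4 of 17 higher, beside 5.38% of all genes (median 0.18). After length correction 1 was higher, beside 3.3% of all genes (median 0.01). It was the NMDA receptor subunit Grin2a, at 7.53 FPKM in HDQ200/200 and 2.30 FPKM in HDQ+/+ (1.37, length-corrected 0.90). Grik2, a kainate receptor subunit, was the one lower after length correction (28.5 FPKM in HDQ200/200 and 37.0 FPKM in HDQ+/+, −0.37, length-corrected −0.83).

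Of 17 regulators of G protein signalling, Rgs9 among them, 6 were called lower and 1 higher, beside 8.77% and 5.38% of all genes. Rgs4 was at 155 FPKM in HDQ200/200 and 297 FPKM in HDQ+/+ (log2 ratio −0.93, length-corrected −0.81) and Rgs14 at 10.9 FPKM in HDQ200/200 and 24.6 FPKM in HDQ+/+ (−1.10, length-corrected −0.90). Rgs6 was the one called higher, at 5.41 FPKM in HDQ200/200 and 2.75 FPKM in HDQ+/+ (0.78, length-corrected 0.56). Phosphodiesterases were split: Pde7b was lower (46.8 FPKM in HDQ200/200 and 75.1 FPKM in HDQ+/+, −0.67, length-corrected −0.81) alongside Pde1b, and Pde1a was higher (29.3 FPKM in HDQ200/200 and 15.3 FPKM in HDQ+/+, 0.89, length-corrected 0.85), as was Pde4d (0.68).

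Vesicle release genes had 4 of 32 features higher and none lower, beside 5.38% and 8.77% of all genes (median 0.31, length-corrected 0.23). Rims1, a scaffold of the presynaptic release site, appeared as 2 features: one was at 17.9 FPKM in HDQ200/200 and 5.64 FPKM in HDQ+/+ (log2 ratio 1.51), and the other at 34.1 FPKM in HDQ200/200 and 23.1 FPKM in HDQ+/+ (0.54). Adhesion and neurexin genes had 6 of 25 higher, beside 5.38% of all genes, and 24 of 25 with a positive value (median 0.27). Their median after length correction was 0.00, with 1 of 25 higher, beside 3.3% of all genes. Ncam2, a neural cell adhesion molecule, was the one still past 1.5-fold (23.3 FPKM in HDQ200/200 and 10.5 FPKM in HDQ+/+, 1.08, length-corrected 0.81). Chromatin regulators had 7 of 26 higher and 1 lower, beside 5.38% and 8.77% of all genes (median 0.37). After length correction none was higher and 2 were lower, beside 3.3% and 4.26% of all genes, and the median was −0.02. Genes of the other polyglutamine diseases and Htt had a median of 0.38 that became −0.01 after length correction. Of 63 listed histone genes 13 passed the filter. Of these 5 were called lower and none higher, beside 8.77% and 5.38% of all genes (median −0.42). After length correction 2 were higher and 1 lower, beside 3.3% and 4.26% of all genes, with a median of −0.15. Over the whole list with no filter the median was 0.00, and at a mean FPKM of at least 10 it was −0.77. Metallothionein genes, which bind zinc and copper, were called lower for all 3 members, beside 8.77% of all genes. Mt1 was at 246 FPKM in HDQ200/200 and 559 FPKM in HDQ+/+ (−1.18). After length correction only Mt1 was past 1.5-fold (−0.74).

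Glial and vascular list medians lay between −0.31 and −0.10 as deposited, against −0.05 for all genes. After length correction they lay between −0.17 and −0.03. Astrocyte genes had a median of −0.10, which was 0.03 on scaled counts, and none of 17 was called after length correction. The water channel Aqp4 was at 24.8 FPKM in HDQ200/200 and 15.5 FPKM in HDQ+/+ (log2 ratio 0.65, length-corrected 0.51). Oligodendrocyte and myelin genes had a median of −0.31 (−0.17 after length correction), with Mbp, of compact myelin, at 1458 FPKM in HDQ200/200 and 1974 FPKM in HDQ+/+ (−0.44). Beside 8.77% of all genes, microglial and complement genes had 3 of 18 lower, C1qa, C1qb and Aif1, with transcripts of 1040, 1088 and 875 bases in that order, and none after length correction (median −0.24 and −0.03). Among 17 endothelial and mural genes 4 were called lower, beside 8.77% of all genes (median −0.18). After length correction 1 was lower, beside 4.26% of all genes. It was the smooth muscle gene Tagln (2.85 FPKM in HDQ200/200 and 6.60 FPKM in HDQ+/+, −0.98, length-corrected −0.63). Heat shock and chaperonin genes had 3 of 26 lower (median −0.20), a share near the 8.77% of all genes, and none after length correction (−0.07).

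The genes furthest from HDQ+/+ mixed long and short transcripts. Hipk2, a protein kinase of the nucleus, had 2380 fragments in HDQ200/200 and 364 in HDQ+/+, a ratio of scaled counts of 7.49 (95% interval 6.71 to 8.39), and a length-corrected log2 ratio of 1.81. Tmem245 followed at 6.05 FPKM in HDQ200/200 and 1.14 FPKM in HDQ+/+, and its transcript of 15981 bases brought its log2 ratio of 1.72 to 1.25 after length correction. Cdr1 was held by 2 features at the same locus of chromosome X, one at 34.5 FPKM in HDQ200/200 and 9.81 FPKM in HDQ+/+ (1.71) and the other at 33.9 FPKM in HDQ200/200 and 14.8 FPKM in HDQ+/+ (1.15). The first was at 2.06 corrected by annotated length and at 1.61 corrected by effective length, by which it stood at percentile 77.5 of all genes. Hs6st3, which sulphates heparan sulphate, was at 6.18 FPKM in HDQ200/200 and 1.53 FPKM in HDQ+/+ (1.51, length-corrected 1.85). On the low side, after the lowest choroid plexus genes, came 2010001M06Rik, with 75 fragments in HDQ200/200 and 501 in HDQ+/+ (−2.46). The choroid plexus gene Kcnj13 (−2.13) was next. Then followed Penk, the short neuronal RNA Bc1 with only 14 fragments in HDQ200/200 and 91 in HDQ+/+ (−2.04), and the globin features.

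**Figure D5:**
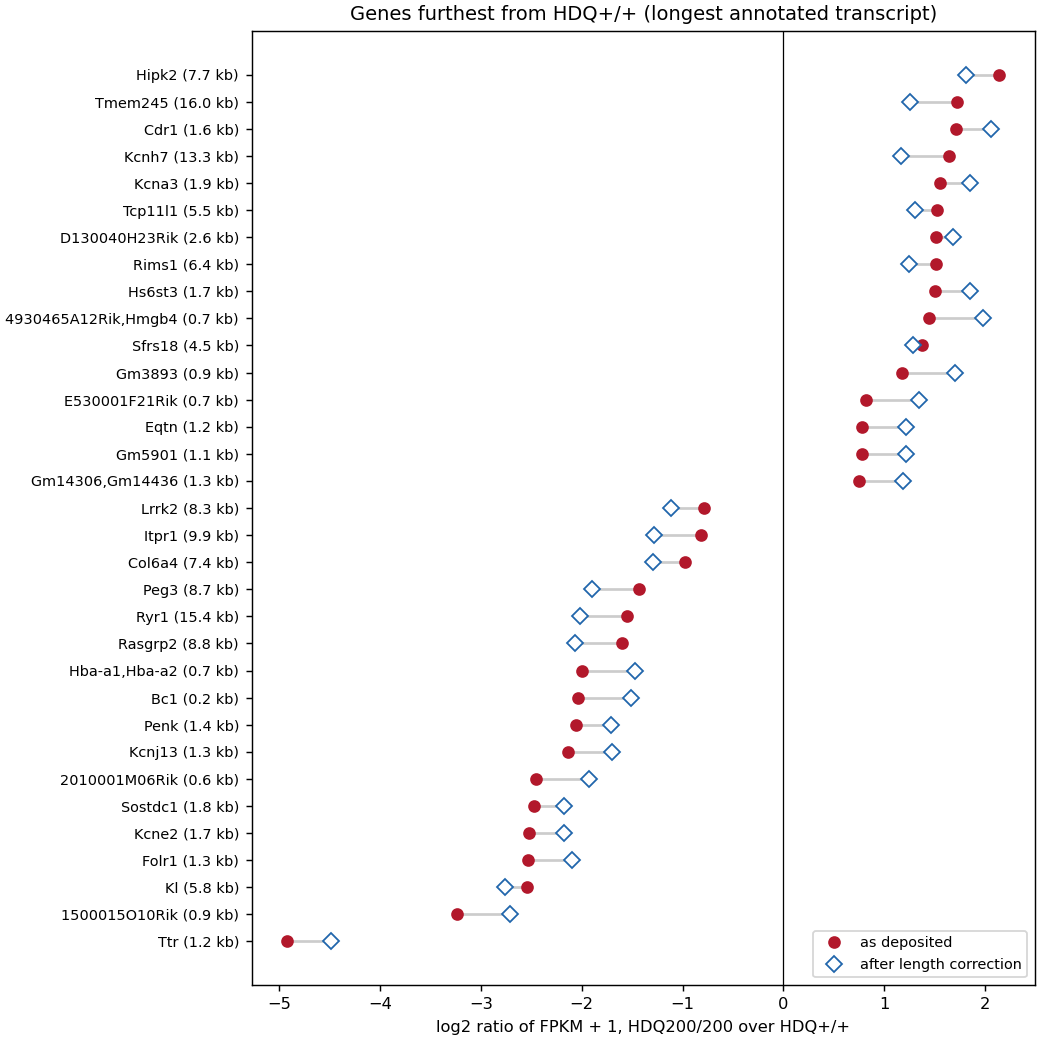
Log2 ratio of FPKM + 1, HDQ200/200 over HDQ+/+, as deposited (red circles) and after length correction (open blue diamonds), for the genes furthest from HDQ+/+ and for long genes that were lower and short genes that were higher, with the longest annotated transcript in kilobases. Correction by annotated length moves long genes such as Tmem245 down (1.72 as deposited, 1.25 corrected) and short genes such as 4930465A12Rik,Hmgb4 up (1.45 as deposited, 1.98 corrected), and no gene shown changes side. Of the higher genes shown, Kcna3, D130040H23Rik, Eqtn and Gm5901 passed the filter only through HDQ200/200.

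By annotated length, a few long genes were lower and a few short genes higher, against the trend. In the longest of the 10 length classes the 6 lowest by FPKM were Rasgrp2, Ryr1, Peg3, Col6a4, Itpr1 and Lrrk2. On scaled counts Itpr1 was higher, with a log2 ratio of 0.20. By effective length Ryr1 (percentile 98.1) and Itpr1 (85.1) were also long, whereas Rasgrp2 (41.1) and the Peg3 feature (25.3) were not. Lrrk2, a kinase gene of Parkinson's disease with a transcript of 8275 bases, was at 19.2 FPKM in HDQ200/200 and 34.0 FPKM in HDQ+/+ (log2 ratio −0.79, length-corrected −1.11), although its ratio of scaled counts was 0.959 (95% interval 0.916 to 1.004). The imprinted gene Peg3 had 2 features that went opposite ways: one, resting on 134 fragments in HDQ200/200 and 580 in HDQ+/+, was lower (−1.43), and the other, on 13034 in HDQ200/200 and 7875 in HDQ+/+, was higher (0.82). Their antisense neighbour Peg3as was at 67.3 FPKM in HDQ200/200 and 27.2 FPKM in HDQ+/+ (1.28), and reads of the strands cannot be told apart where strandedness is unstated. In the shortest class the 6 highest were 4930465A12Rik,Hmgb4, Gm3893, E530001F21Rik, Eqtn, Gm5901 and Gm14306,Gm14436. The first of these was at 7.41 FPKM in HDQ200/200 and 2.09 FPKM in HDQ+/+ (1.45, length-corrected 1.98). It and Gm5901 were also short by effective length (percentiles 14.6 and 11.3), whereas Gm3893 (70.1) and E530001F21Rik (69.9) were not. Eqtn and Gm5901 passed the filter only through HDQ200/200, since the mean of the other libraries was under 1 FPKM.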

How the data were processed

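Poly A+ RNA of the striatum was sequenced, 1 library per genotype, and 4 libraries share 1 deposited table. Per the submitters' processing notes the build was mm10 and the tools included TopHat2 2.0.11, Bowtie2 2.1.0, Cufflinks 2.1.1, Cuffdiff and Cuffnorm; neither notes nor labels state their order, the gene annotation, the strandedness or the scaling. Values named FPKM in the file headers were taken unchanged from the deposited table. Its count columns hold a scaled signal, as deposited by the authors: 98.2% of entries above 0 in HDQ200/200 and 98.0% in HDQ+/+ were whole multiples (within 0.05) of a fixed step, 0.895 in HDQ200/200 and 0.781 in HDQ+/+, and division by the step gave fragments.

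Named genes with a mean FPKM of at least 1 were kept, and differences were taken on log2(FPKM + 1), which understates the change of low genes. Transcript length was the longest GENCODE vM21 transcript of the gene on GRCm38, and correction subtracted the median of 20 length classes. The correction and the interval were tested on simulated counts of well-covered genes with a smooth length trend. That simulation used counts in place of FPKM, had no GC trend and took annotated lengths as true. It therefore cannot show how well the correction suits these data. Intervals of count ratios are exact Clopper-Pearson at 95%, cover counting error only, and treat fragments as independent molecules. Genes with fewer than 50 fragments in both libraries (151) were not ranked. The feature mt-Atp6,mt-Atp8,mt-Co3 was listed at 0 in HDQ+/+ and at 111500 FPKM in HDQ200/200 and was not ranked; 121 features shared 59 names. Promoters were matched by symbol to RefSeq on GRCm38.p6. Python 3.11.15, numpy 2.4.6, pandas 2.3.3, scipy 1.17.1 and statsmodels 0.14.6 were used.

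The text names Htt and some, not all, of the 12 highest and 12 lowest genes with and without length correction. Of those not named elsewhere, BC049635, 4921511C10Rik and Uprt passed the filter only through HDQ200/200. It also names the 6 lowest of the longest of 10 length classes and the 6 highest of the shortest. From each list it names up to 6 members by log2 ratio and 2 by corrected value. For projection neuron, pathway, immediate early, red blood cell, choroid plexus and cortical lists any member could be named. Peg3as and Foxj1 were named after their values were seen. The members and lists were chosen with earlier results of these data known. Some members of the lists are counted but not reported here by name.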

Additional observations from a re-analysis of the deposited data

How the results depend on the processing

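No paired analysis was possible because each genotype has 1 library, and for the same reason no replicate could be left out. The GC correction was chosen after seeing the data; the other alternatives were planned. The cause of each shift was not tested. The count higher in HDQ200/200, 693, became 1045 with a pseudocount of 0.1, 227 at a mean FPKM of at least 10, 1290 on scaled counts, 422 after length correction and 84 at 2-fold. The count lower, 1130, became 544 after length correction, 140 at 2-fold and 744 with GC correction. After length correction 422 and 544 became 674 higher with a pseudocount of 0.1, 146 and 287 at a mean FPKM of at least 10, 70 and 88 at 2-fold, and 1201 lower with no filter. The median of all genes, −0.05, was −0.063 with a pseudocount of 0.1, −0.15 at a mean FPKM of at least 10, 0.012 with upper quartile scaling, 0.007 on scaled counts, and 0.00 with no filter, median centring, length correction or GC correction. The length correlation, 0.59, was 0.37 with no filter. Htt was 0.09 with upper quartile scaling, −0.45 after length correction and 0.12 with GC correction, and fell under the filter at a mean FPKM of at least 10. The choroid plexus median, −2.50, was −3.36 with a pseudocount of 0.1, −3.58 on scaled counts, −1.79 with no filter and −2.14 after length correction. The cortical median was 0.93 on scaled counts and 0.83 after length or GC correction. The ribosomal median, −0.73, was −0.68 with median centring, −0.65 with upper quartile scaling, −0.66 on scaled counts, −0.28 after length correction and −0.61 with GC correction, and the complex I median was −0.16 after length correction and −0.55 with GC correction. Among single genes Itpr1 reversed, to 0.20 on scaled counts. Of the alternatives' list medians 591 stayed within an order-statistic interval of the list's median and 87 did not. That interval covers at most 95%, and less for short lists, and treats list members as independent. Of the values of named genes 317 stayed within the counting interval, 153 did not and 1 reversed.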

Other observations

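Both a female and a male marker were present in each library. Xist, the RNA that silences an X chromosome in female cells, was at 48.7 FPKM in HDQ200/200 and 24.3 FPKM in HDQ+/+ (length-corrected log2 ratio 0.51), and the Y-linked gene Ddx3y at 11.8 FPKM in HDQ200/200 and 7.43 FPKM in HDQ+/+ (length-corrected 0.51). Of 5 sex-linked transcripts 3 were called higher in HDQ200/200, beside 5.38% of all genes (median 0.60). After length correction none was called, beside 3.3% of all genes higher, and the median was 0.32. Among long non-coding RNAs, Miat was at 22.7 FPKM in HDQ200/200 and 10.4 FPKM in HDQ+/+ (log2 ratio 1.06, length-corrected 0.59), while Neat1, the scaffold RNA of paraspeckles, was at 61.2 FPKM in HDQ200/200 and 99.98 FPKM in HDQ+/+ (−0.70, length-corrected −1.17).

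Intracellular calcium release channels did not move together. Ryr2 was at 11.5 FPKM in HDQ200/200 and 7.13 FPKM in HDQ+/+ (log2 ratio 0.62, length-corrected 0.16), whereas Ryr3 was at 18.0 FPKM in HDQ200/200 and 25.6 FPKM in HDQ+/+ (−0.48, length-corrected −0.95) and Ryr1 was lower on each scale. For Ryr3 the scaled counts ran the other way, with a ratio of 1.11. The FPKM ratio and the ratio of scaled counts were at least 1.5-fold apart for 144 of 12554 genes. Mitochondrial transcripts, without the features listed at 0, made up 6.93% of fragments in HDQ200/200 and 7.53% in HDQ+/+.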
